A study of Homo sapiens with 6 samples.

Results

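The 46 genes described here are well-known interferon-stimulated genes (ISGs), with the STAT and IRF factors that drive them among their number. They were chosen by gene name from the 60671 genes of the deposited expression table. The table held 45 of them under their own names, and IRF9, whose name is blank there, was found by its Ensembl identifier, ENSG00000213928. Expression was measured by RNA-Seq in U87, an established human glioblastoma cell line. The rutaecarpine group (3 libraries) was exposed for 48 h to 100 μM rutaecarpine, an alkaloid of Evodia rutaecarpa, and the solvent control group (3 libraries) to 0.1% DMSO. Both groups were in serum-free medium, and rutaecarpine was diluted from a stock in DMSO, so both groups held the solvent. The cells were 1 line in culture, without the immune and stromal cells of a tumor. The labels do not say whether the libraries of a group came from separate cultures, so the p-values measure the spread between these libraries, which may be technical.

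Interferons act through the JAK-STAT pathway. Type I interferons bind the receptor chains IFNAR1 and IFNAR2, whose kinases JAK1 and TYK2 phosphorylate STAT factors, STAT2 among them, and STAT2 joins IRF9 in the factor ISGF3. ISGF3 binds the interferon-stimulated response element (ISRE) in ISG promoters, whereas interferon gamma acts through the gamma-activated site (GAS). The proteins made from ISGs block virus entry, sense or degrade foreign RNA, or feed back on the pathway, and many ISGs are also transcribed at a low level in cells that received no interferon.

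The promoter stretches below come from the members the comparison turned on and from ISG15, a member whose level was close in both groups. They were chosen after the values were seen. Each is reference sequence from RefSeq (GRCh38.p14), read along the strand of the gene, and lies upstream of the RefSeq start. Capitals mark ISRE-like matches (GAAANNGAAA, on either strand), except in IRF9, where they mark a GAS-like match (TTCNNNGAA). The 300 bases searched around the start of IRF9 held no ISRE-like match. No promoter of IFITM2 was in the table used. The stretches are at chr11:320884-320913 on the minus strand (IFITM3), chr1:27672219-27672312 on the minus strand (IFI6), chr14:24161192-24161221 on the plus strand (IRF9), chr11:313990-314019 on the plus strand (IFITM1) and chr1:1013377-1013422 on the plus strand (ISG15).
IFITM3: gGAAAAGGAAActgttgaGAAACCGAAAct
IFI6: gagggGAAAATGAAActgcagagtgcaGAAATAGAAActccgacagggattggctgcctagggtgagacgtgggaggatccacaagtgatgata
IRF9: accacgtgatTTCTGGGAAaaggccctccc
IFITM1: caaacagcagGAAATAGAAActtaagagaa
ISG15: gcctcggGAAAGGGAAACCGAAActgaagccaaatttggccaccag

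Abundance was deposited as TPM from RSEM, a unit in which reads are divided by transcript length and each library is brought to a common total. Depth cannot be read from such values, and counting error is therefore not given. A TPM of 1 or more was reached by 13758 to 14475 genes in each library. Control replicate 3 stood apart. Its median log2(TPM + 1) over the tested genes was 3.56, where the other 5 libraries lay between 3.81 and 4.00, and its Pearson's r with the other controls, taken over genes rather than replicates, was 0.965. The aryl hydrocarbon receptor (AhR) targets CYP1B1 and TIPARP rose after rutaecarpine, by 2.52 and 3.11 on the log2 scale (adjusted p of 0.00191 and 0.000529, limma with Benjamini-Hochberg adjustment). AHRR and CYP1A1 differed by 2.07 and 0.99 in log2(TPM + 1), where the added 1 shrinks differences at low TPM. Their means went from 0.283 to 4.53 TPM and from 0.08 to 1.15 TPM. These values are given as a description, since both genes reached the minimum for testing through the rutaecarpine group alone. Of the glial and mesenchymal genes, VIM fell from 7498 ± 499 to 4857 ± 381 TPM (SD, n = 3, limma adjusted p = 0.00894). NES fell by 0.53 on the log2 scale from 19.5 ± 2.01 to 13.2 ± 0.751 TPM (adjusted p = 0.0491). Of the 6 fits that left out a library, VIM was called in 3 and NES in 1, that without control replicate 3. CD44 was abundant in both groups, GFAP lay between 3.48 and 5.41 TPM and S100B was at most 0.25 TPM. CDKN2A and MTAP, which are deleted in U87, summed to at most 0.07 TPM. Of 5 leukocyte markers, 4 were low in each library, with CD14 at most 0.54 TPM, CD3E at most 0.07 TPM, PTPRC at no more than 0.03 TPM and MS4A1 at 0. ITGAX was the exception at 7.61 to 11.8 TPM, and the sum of the 5 was 8.16 to 10.2 TPM in the controls and 11.1 to 12.0 TPM after rutaecarpine. The endothelial genes PECAM1 and CDH5 summed to at most 1.35 TPM, and the epithelial gene EPCAM was at most 0.8 TPM. The part of these differences in the results was not tested.

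Most ISGs of U87 cells were expressed at low to moderate levels. The shares that passed the test between the groups are given below, beside those of all tested genes. The mean TPM in the controls was at least 10 in 20 members, from 1 to 10 in 22 members and under 1 in 4 members. Of the 46 genes, 41 passed the minimum for testing, which was 1 TPM in any 3 libraries. RSAD2, CMPK2, IFI27, CXCL10 and CXCL11 did not. OAS1 passed through the control group alone, so its difference carries that selection. As these are bulk libraries, fewer cells expressing a gene and less RNA per cell cannot be told apart.

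**Figure D1:**
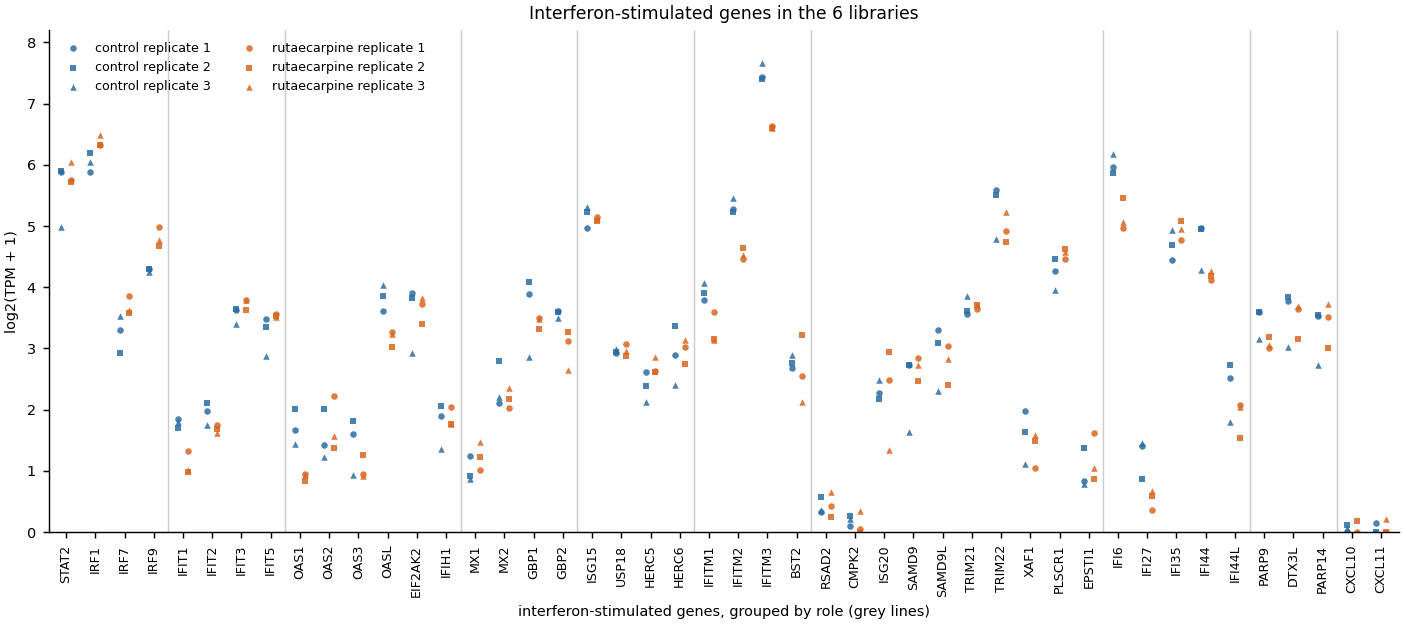
Expression of each of the 46 ISGs in the 6 libraries as log2(TPM + 1), ordered by role with grey lines between roles (blue, control; orange, rutaecarpine; circles, squares and triangles are replicates 1, 2 and 3). IFITM3 was highest, at 168 to 202 TPM in the controls and 95.8 to 98.8 TPM after rutaecarpine, while CXCL10 and CXCL11 stayed at or below 0.16 TPM, and the control replicate 3 triangle is often the lowest control point.

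The plot by library shows IFITM3, IFITM2 and IFI6 with the orange points below the blue ones, and IRF9 with the orange points above. These 4 genes were the members that passed the test, limma on log2(TPM + 1) with p-values adjusted over all 14377 tested genes. IFITM3, IFITM2 and IFI6 fell (3 members, 7.32% of those tested, against 4.68% of all tested genes called lower). IRF9 rose (1 member, 2.44%, against 4.6% of all tested genes called higher). With the study's second cutoff, a change of more than 1 on the log2 scale, 0 members were differentially expressed genes (DEGs) in either direction, against 2.01% of all tested genes higher and 1.5% lower. At an unadjusted p under 0.05, 2 members were higher (4.88%, against 13.4% of all tested genes). Another 9 were lower (22.0%, against 11.0%), OAS1 among them, which was selected through its controls.

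The median log2 fold change of the 41 members was -0.05, with quartiles of -0.41 and 0.18, and that of all tested genes was 0.08, with quartiles of -0.16 and 0.31. Of the members, 19 lay above 0 and 22 below it, between -0.89 (IFITM3) and 0.52 (IRF9). In 10 members each rutaecarpine library was below each control library (24.4%, against 14.0% of all tested genes). They were IFIT1, IFIT2, OAS1, OASL, GBP2, IFITM1, IFITM2, IFITM3, IFI6 and IFI44, with OAS1 selected through its controls. In 5 members, IRF1, IRF7, IRF9, IFIT5 and PLSCR1, each rutaecarpine library was above each control library (12.2%, against 19.3%). Centring the libraries on their medians moved the median of all genes to -0.01. The calls among the 41 members were then 0 higher and 4 lower in place of 1 and 3. Over all 14377 tested genes, 593 were called higher and 786 lower in that fit. The 4 members were IFI44, IFITM2, IFITM3 and OAS1, the last selected through its controls. IFI6 lost its call (limma adjusted p = 0.0524). For a single gene, 3 libraries against 3 allow no exact permutation p under 0.1, so the calls draw on a spread that limma estimates from many genes together.

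**Figure D2:**
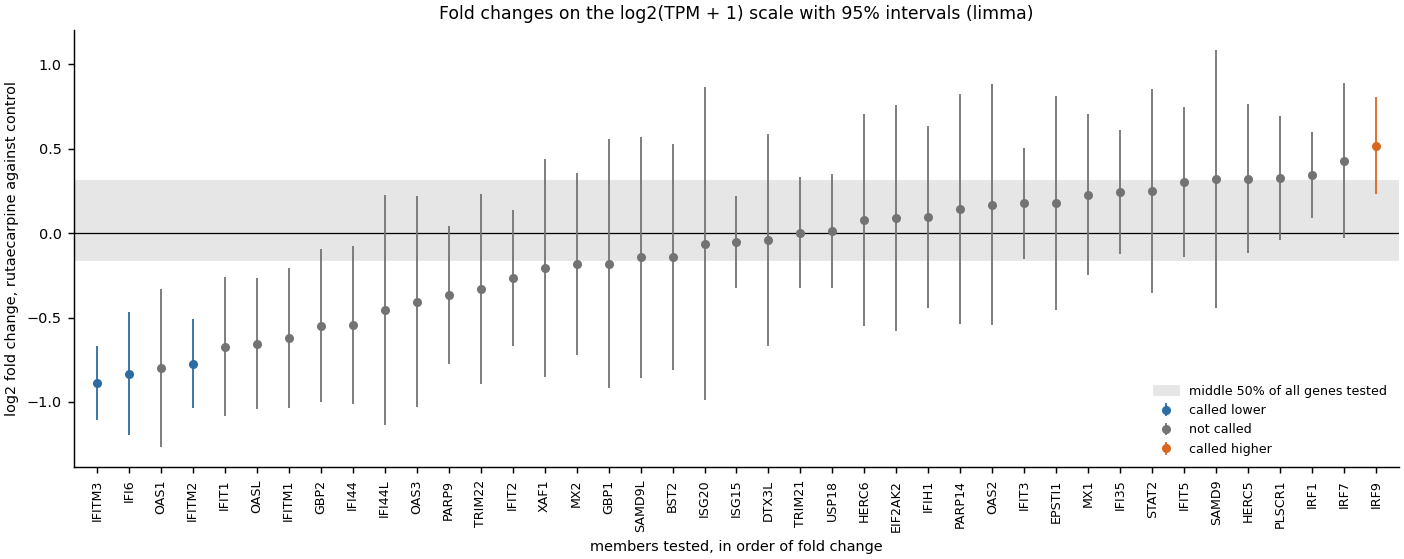
Log2 fold change of the 41 tested ISGs (rutaecarpine against control, on the log2(TPM + 1) scale) with 95% intervals from limma, in order of size, with called genes in color and the grey band holding the middle 50% of all tested genes (-0.16 to 0.31). IFITM3, IFI6 and IFITM2 lie at the lower end at -0.89, -0.83 and -0.77 and IRF9 at the upper end at 0.52, and the intervals of 12 members reach beyond a change of 1.

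The intervals in the plot of fold changes show how much the libraries could resolve. For 29 of the 41 members the 95% interval lay within a change of 1 on the log2(TPM + 1) scale in either direction. For 12 it reached beyond. The added 1 shrinks differences of weakly expressed members, so their intervals bound a fall in TPM less well. MX1 and EPSTI1 are among the 29, with control means of 1.03 and 1.04 TPM, which leave little room for a fall on this scale. With 0.1 added, IFIT1 differed by -1.02 in place of -0.67. ISG15 and USP18 had narrow intervals around 0, whereas those of ISG20, SAMD9 and GBP1 were wide.

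Of the transcription factors, 1 was called, IRF9, which rose (4.6% of all tested genes were called higher and 4.68% lower). Each role holds few genes, so the counts of calls by role, here and below, are only a description. IRF9, the DNA-binding subunit of ISGF3, was at 18.8, 18.8 and 18.04 TPM in the controls and at 30.7, 24.4 and 26.2 TPM after rutaecarpine. The groups did not overlap, and the 3 controls were within 1 TPM of each other. IRF9 rose by 0.52 on the log2 scale (SE 0.12, 95% interval 0.23 to 0.81, limma adjusted p = 0.0437), from 18.5 ± 0.42 to 27.1 ± 3.25 TPM (SD, n = 3). The call was close to the threshold. It was made in 1 of the 6 fits that left out a library, the fit without control replicate 3 (adjusted p = 0.0249), and in 5 of 14 alternatives in all (here and below the replicate block is not among the alternatives counted and is given apart), where its adjusted p ranged from 0.00335 to 0.176. The gene (chr14:24161053-24166565, plus strand, GENCODE 29) overlaps AL136295.5 on the same strand, so the division of reads between them is uncertain.

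IRF1, which interferon gamma induces and which itself activates ISGs, was at 57.9, 71.9 and 65.4 TPM in the controls and at 79.3, 79.6 and 89.2 TPM after rutaecarpine. Its log2 fold change was 0.34 (95% interval 0.09 to 0.60), which did not pass (limma adjusted p = 0.104). IRF7, the main factor for transcription of interferon alpha genes, was at 8.92, 6.57 and 10.6 TPM and then 13.5, 10.9 and 11.3 TPM. Both factors were higher in each rutaecarpine library than in any control, although for IRF7 the gap between the nearest libraries was small, and its interval ran from -0.03 to 0.89. STAT2, the partner of IRF9 in ISGF3, was at 58.0, 58.9 and 30.6 TPM in the controls and at 53.0, 51.5 and 65.4 TPM after rutaecarpine. Control replicate 3 was the low value there. The log2 fold change of STAT2 was 0.25 with all libraries and -0.05 without that library.

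Of the 4 membrane restriction factors 2 were called, IFITM2 and IFITM3, and both fell (4.68% of all tested genes were called lower). IFITM1, IFITM2 and IFITM3 are small membrane proteins that hinder the fusion of viruses with the cell, IFITM3 mainly in endosomes. IFITM3 was at 172, 168 and 202 TPM in the controls and at 98.8, 95.8 and 96.3 TPM after rutaecarpine. The groups were far apart, and the rutaecarpine libraries were close together. IFITM3 fell by 0.89 on the log2 scale (SE 0.09, 95% interval -1.11 to -0.67, limma adjusted p = 0.00207), from 181 ± 18.7 to 96.9 ± 1.58 TPM (SD, n = 3). IFITM2 was at 37.7, 36.5 and 42.8 TPM and then 20.98, 24.0 and 22.1 TPM, again with a wide gap between the groups. It fell by 0.77 (SE 0.11, 95% interval -1.04 to -0.51, limma adjusted p = 0.00698), from 39.0 ± 3.33 to 22.4 ± 1.5 TPM. Both were called in each of the 6 fits that left out a library.

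IFITM1 was at 12.8, 14.1 and 15.8 TPM in the controls and at 11.1, 7.93 and 7.84 TPM after rutaecarpine. The groups did not overlap, but rutaecarpine replicate 1 was near the controls, and the difference of -0.62 on the log2 scale (95% interval -1.04 to -0.21) did not pass (limma adjusted p = 0.077). BST2, which tethers budding virions to the cell surface, was at 5.38, 5.76 and 6.40 TPM and then 4.85, 8.36 and 3.36 TPM. Its rutaecarpine libraries lay on both sides of the controls, and its interval of -0.81 to 0.53 leaves the direction unresolved.

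The 3 IFITM genes lie together on chromosome 11 and are close in sequence, so RSEM had to divide reads between them. IFITM3 is at chr11:319669-327537 on the minus strand, and IFITM2 (chr11:307631-315272, plus strand) spans IFITM1 (chr11:313506-315272, plus strand) in GENCODE 29 on GRCh38. The TPM of the 3 genes were therefore also summed, a step chosen after seeing the data. The sum was 222, 219 and 261 TPM in the controls and 131, 128 and 126 TPM after rutaecarpine. It was 0.549 times as high after rutaecarpine as in the controls (128 ± 2.35 against 234 ± 23.3 TPM, SD, n = 3), with no overlap. IFITM3 made up 76.9% to 77.5% of the sum in the controls and 75.03% to 76.3% after rutaecarpine. IFITM3 also overlaps AC136475.8 and AC136475.7 on its own strand and AC136475.1, AC136475.4 and AC136475.5 on the other. IFITM2 overlaps AC136475.2 on the other strand. The division of reads with these genes is uncertain too.

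**Figure D3:**
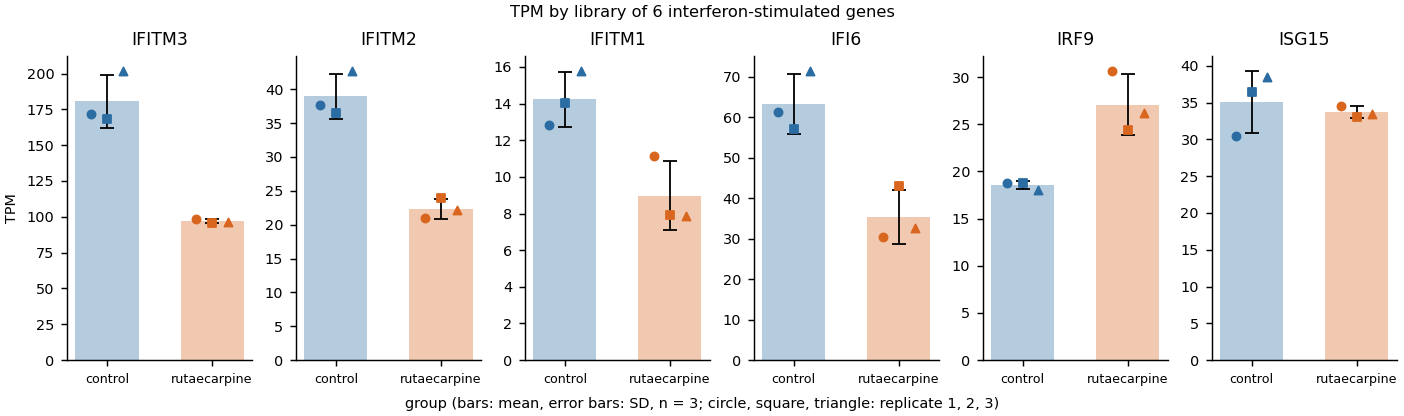
TPM of IFITM3, IFITM2, IFITM1, IFI6, IRF9 and ISG15 by group, with bars for the mean, error bars for the SD (n = 3) and points for the libraries (circle, square and triangle are replicates 1, 2 and 3). The rutaecarpine points lie below all control points for the IFITM genes and IFI6 and above them for IRF9, while ISG15 overlapped at 30.4 to 38.6 TPM in the controls and 33.0 to 34.6 TPM after rutaecarpine.

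The plot of the called members sets IFI6 beside them. IFI6 encodes a small interferon-induced membrane protein with a role against cell death, and was at 61.3, 57.2 and 71.6 TPM in the controls and at 30.5, 43.0 and 32.6 TPM after rutaecarpine. Rutaecarpine replicate 2 was the highest of its group and still below the controls. IFI6 fell by 0.83 on the log2 scale (SE 0.16, 95% interval -1.20 to -0.47, limma adjusted p = 0.0188), from 63.4 ± 7.40 to 35.4 ± 6.73 TPM (SD, n = 3). The call was lost without control replicate 1 (adjusted p = 0.0597), without rutaecarpine replicate 1 (0.0812) and without rutaecarpine replicate 3 (0.095), and it was made in 9 of 14 alternatives, with adjusted p from 0.00069 to 0.095. IFI6 lies at chr1:27666061-27672218 on the minus strand and overlaps AL445490.1 on the other strand. Whether the counting used strand is not given in the sources used here.

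Among the other IFI genes, IFI27, another small membrane protein, was at 1.64, 0.83 and 1.74 TPM in the controls and at 0.28, 0.51 and 0.60 TPM after rutaecarpine. These groups did not overlap, but IFI27 was too low to be tested. IFI44 was at 30.3, 29.9 and 18.6 TPM and then 16.4, 17.2 and 18.2 TPM. Here control replicate 3 lay next to the rutaecarpine libraries. The difference of IFI44 was -0.55 on the log2 scale with all libraries (limma adjusted p = 0.149) and -0.77 without that control, where it passed (adjusted p = 0.00193, and between 0.000764 and 0.355 over 14 alternatives). Its neighbor IFI44L was at 4.70, 5.61 and 2.47 TPM in the controls and at 3.23, 1.91 and 3.11 TPM after rutaecarpine, overlapping through the same control. IFI35, which binds the factor NMI, differed by 0.24, with an interval of -0.13 to 0.61.

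The IFIT proteins bind viral RNA, and the 4 of them did not share a direction. IFIT1 was at 2.58, 2.26 and 2.49 TPM in the controls and at 1.5, 0.98 and 1.03 TPM after rutaecarpine. The groups were apart, but at these low levels the log2 fold change of -0.67 (95% interval -1.08 to -0.26) did not pass (limma adjusted p = 0.0595), and it passed in 4 of 13 alternatives. IFIT2 was at 2.96, 3.31 and 2.38 TPM and then 2.36, 2.22 and 2.07 TPM, so that the nearest libraries of the groups, at 2.38 and 2.36 TPM, almost met. IFIT3, the most abundant of the 4 at 9.54 to 11.5 TPM in the controls, was at 11.4 to 12.8 TPM after rutaecarpine. IFIT5 was at 6.32 to 10.2 TPM and then 10.5 to 10.9 TPM, with control replicate 3 as its lowest value. Neither passed, and their log2 fold changes were 0.18 and 0.30.

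Among the enzymes and sensors of double-stranded RNA, OAS1 and OASL were lower in each rutaecarpine library. OAS1, which makes the oligoadenylates that switch on RNase L, was at 2.17, 3.03 and 1.71 TPM in the controls and at 0.93, 0.78 and 0.91 TPM after rutaecarpine. OASL, a relative without the synthase activity that aids sensing by RIG-I, was at 11.2, 13.4 and 15.4 TPM and then 8.64, 7.16 and 8.45 TPM. OAS1 differed by -0.80 on the log2 scale, given as a description, since it reached the minimum for testing through the control group alone. OASL, at -0.65, lay just outside the threshold (limma adjusted p = 0.0543, and 0.0103 to 0.176 over 14 alternatives).

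OAS2 and OAS3, the larger synthases, did not separate. OAS2 was at 1.68, 3.02 and 1.35 TPM in the controls and at 3.68, 1.60 and 1.96 TPM after rutaecarpine. OAS3 was at 2.04, 2.53 and 0.91 TPM and then 0.94, 1.40 and 0.89 TPM, lower after rutaecarpine than in controls 1 and 2 and level with control replicate 3. EIF2AK2, the kinase PKR that halts translation on double-stranded RNA, was at 14.1, 13.3 and 6.64 TPM in the controls and at 12.3, 9.51 and 13.2 TPM after rutaecarpine. Its log2 fold change was 0.09 with all libraries and -0.22 without control replicate 3, and neither passed. IFIH1, the RNA sensor MDA5, differed by 0.09 (95% interval -0.45 to 0.63).

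Of the 4 GTPases, 0 passed the test (limma), against 4.6% of all tested genes called higher and 4.68% lower. GBP2 alone had an unadjusted p under 0.05, against 13.4% of all tested genes higher and 11.0% lower. MX1 and MX2, dynamin-like proteins that trap viral components, were at 0.83 to 1.38 and 3.30 to 5.95 TPM in the controls and at 1.02 to 1.77 and 3.10 to 4.10 TPM after rutaecarpine. Both overlapped between the groups. GBP2, a guanylate-binding protein that attacks pathogen membranes, was at 11.2, 11.1 and 10.2 TPM and then 7.70, 8.68 and 5.29 TPM. The groups did not overlap, and the log2 fold change of -0.55 (95% interval -1.0 to -0.09) did not pass (limma adjusted p = 0.137). GBP1 was at 13.8, 16.0 and 6.30 TPM in the controls and at 10.3, 8.93 and 10.2 TPM after rutaecarpine, so that control replicate 3 lay below all rutaecarpine libraries and the other controls above them.

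The ISG15 system gave 0 calls among its 4 genes (limma), against 4.6% of all tested genes called higher and 4.68% lower. At an unadjusted p under 0.05 there were 0 too, against 13.4% higher and 11.0% lower. Its members differed by -0.05 to 0.32 on the log2 scale. ISG15 itself, a ubiquitin-like protein joined to other proteins and among the most strongly induced ISGs in cells given interferon, was at 30.4, 36.5 and 38.6 TPM in the controls and at 34.6, 33.0 and 33.5 TPM after rutaecarpine. The rutaecarpine libraries lay inside the range of the controls. The 95% interval of -0.33 to 0.22 on the log2 scale bounds a change of ISG15. USP18, which removes ISG15 and restrains the type I receptor, was at 6.60, 6.73 and 6.96 TPM and then 7.45, 6.38 and 6.74 TPM, with an interval of -0.32 to 0.35. HERC5, the ligase that attaches ISG15, was at 3.38 to 5.16 TPM in the controls and at 5.16 to 6.25 TPM after rutaecarpine (log2 fold change 0.32, 95% interval -0.12 to 0.77). Its relative HERC6 spread over 4.29 to 9.37 TPM among the controls alone.

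Of the other antiviral effectors, 8 of 10 were tested and 0 were called by limma, with 0 at an unadjusted p under 0.05 as well. The shares of all tested genes were 4.6% called higher and 4.68% lower, and 13.4% and 11.0% at that unadjusted p. TRIM22, a ubiquitin ligase, was at 47.3, 44.7 and 26.6 TPM in the controls and at 29.3, 25.9 and 36.5 TPM after rutaecarpine. TRIM21, the cytosolic antibody receptor, was at 10.9, 11.2 and 13.6 TPM and then 11.5, 12.0 and 12.0 TPM, a log2 fold change of 0.00 (95% interval -0.32 to 0.33). The 2 TRIM genes thus differed in how their controls behaved, since control replicate 3 was low for TRIM22 and high for TRIM21. PLSCR1, a phospholipid scramblase, was at 14.5 to 21.03 TPM in the controls and at 21.07 to 23.7 TPM after rutaecarpine, so that its groups almost met. SAMD9 and SAMD9L, paired genes that restrict poxviruses, were at 2.09 to 5.65 and 3.95 to 8.86 TPM in the controls and at 4.51 to 6.22 and 4.27 to 7.21 TPM after rutaecarpine. ISG20, an exonuclease, ranged from 1.53 to 6.68 TPM within the rutaecarpine group, on both sides of the controls. XAF1, a partner of the apoptosis inhibitor XIAP, lay between 1.06 and 2.96 TPM over all libraries, and EPSTI1 between 0.73 and 2.08 TPM, with overlapping groups. RSAD2, the enzyme viperin, and its neighbor CMPK2 were at most 0.58 and 0.27 TPM. They overlap on opposite strands, so reads there cannot be assigned without strand.

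PARP9 and DTX3L form a complex that modifies chromatin proteins, and PARP14 is an ADP-ribosyltransferase. PARP9 was at 11.1, 11.1 and 7.95 TPM in the controls and at 7.02, 8.13 and 7.37 TPM after rutaecarpine, overlapping by control replicate 3. DTX3L was at 12.7, 13.3 and 7.10 TPM and then 11.6, 7.94 and 12.0 TPM, and PARP14 at 10.6, 10.7 and 5.63 TPM and then 10.5, 7.0 and 12.2 TPM. In all 3 genes control replicate 3 lay below the other controls. CXCL10 and CXCL11, chemokines that draw T cells through CXCR3 and that interferon gamma induces strongly, were at most 0.14 and 0.16 TPM, and were listed at 0 in 3 and 4 of the 6 libraries.

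Summed over the 46 members, TPM lay between 727 and 787 in the controls and between 622 and 656 after rutaecarpine. Without IFITM1, IFITM2, IFITM3 and IFI6 the sums were 394 to 512 TPM and 451 to 498 TPM, which overlap. The 394 TPM was that of control replicate 3. These 4 genes were left out of the sum after their values were seen, so the overlap is only a description.

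Control replicate 3 bore on the members to different degrees. It was the lowest control in 26 of the 41 tested members (63.4%), close to its share among all tested genes (62.3%). Its difference from the mean of controls 1 and 2 varied with transcript length. In the 20 members with the longest coding transcripts (3259 to 10042 bases) the median difference was -0.66 on the log2 scale, and in the other 21 (787 to 3160 bases) it was 0.05. Pearson's r of this difference with log2 length was -0.74 over the 41 members and -0.43 over 14267 genes, as a description of 1 library.

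**Figure D4:**
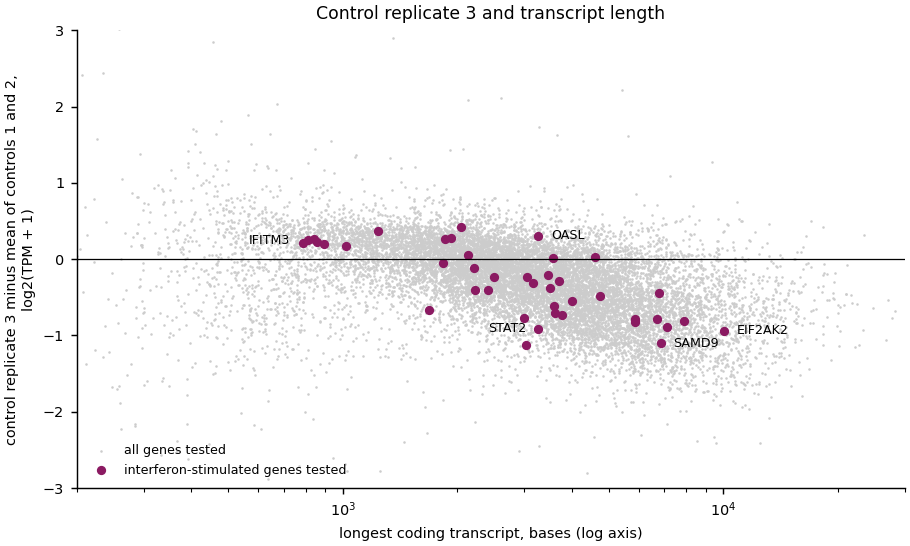
Control replicate 3 minus the mean of controls 1 and 2, in log2(TPM + 1), against the length of the longest coding transcript in bases on a log axis, for all tested genes (grey, some of which lie beyond the axes) and the 41 tested ISGs (purple). Members of up to 3160 bases center near 0 with a median of 0.05, while the 20 longest have a median of -0.66.

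In the plot against transcript length, the IFITM genes and IFI6 are among the shortest members, where control replicate 3 was slightly above the other controls. EIF2AK2, the member with the longest transcript at 10042 bases, and SAMD9 are at the other end. The part of transcript length in the differences between the groups was not tested beyond the alternative fit with its trend removed. In that fit, chosen after seeing the data, 8 members were called lower (19.5% of those tested, against 9.13% of all tested genes). They were IFI44L, IFI6, IFIT1, IFITM1, IFITM2, IFITM3, OAS1 and OASL, with OAS1 selected through its controls. IRF9 was called higher (1 member, 2.44%, against 7.49%).

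Without control replicate 3, 40 members could be tested, of which 8 were called lower in place of 3 (against 10.3% of all tested genes in that fit) and 1, IRF9, was called higher (against 8.36%). The genes that joined the list were GBP1, IFI44, OASL, PARP9 and TRIM22, and the 4 earlier calls remained. GBP1 moved most among them, from -0.18 to -0.55 on the log2 scale (limma adjusted p = 0.0251, and up to 0.95 over 14 alternatives). TRIM22 moved from -0.33 to -0.59 (adjusted p = 0.0265, and up to 0.68), and PARP9 from -0.37 to -0.51 (adjusted p = 0.032, and up to 0.516). Each of the 5 had a difference below 0 with all libraries too.

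**Figure D5:**
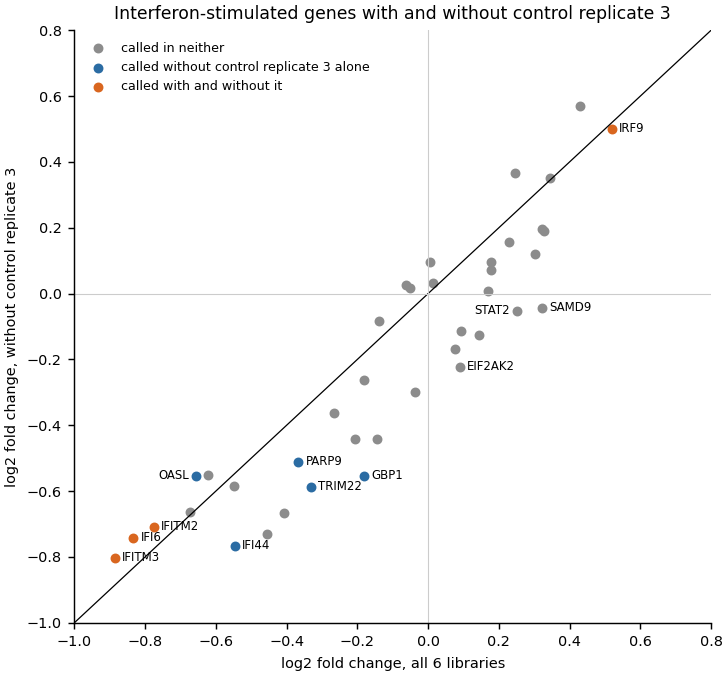
Log2 fold change of 40 tested ISGs without control replicate 3 (vertical axis) against that with all 6 libraries (horizontal axis), with orange for the 4 genes called in both fits, blue for the 5 called without that library alone, grey for the rest and a black line of equality. Of the 40 genes, 26 lie below the line, with STAT2, SAMD9 and EIF2AK2 moving from above 0 to below it.

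The comparison of the fits with and without control replicate 3 places IFITM3, IFITM2 and IFI6 at -0.80, -0.71 and -0.74 without it, slightly nearer to 0 than with it, and IRF9 at 0.50. STAT2, SAMD9 and EIF2AK2 crossed 0, from 0.25, 0.32 and 0.09 to -0.05, -0.05 and -0.22, and did not pass in either fit.

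The wider interferon pathway was read from a list of 76 further genes, of which 56 could be tested. The list gave 4 genes called lower (7.14%, against 4.68% of all tested genes) and 0 called higher (against 4.6%), by limma with adjusted p at most 0.05. At an unadjusted p under 0.05, 7 were higher (12.5%, against 13.4% of all tested genes) and 8 lower (14.3%, against 11.0%), and the median log2 fold change was 0.10. The 9 interferon genes of the list, IFNB1, IFNA1, IFNA2, IFNE, IFNK, IFNG, IFNL1, IFNL2 and IFNL3, were listed at 0 in all 6 libraries. A 0 does not tell a gene that was not transcribed from one absent from the genome of this line.

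SOCS3, a feedback inhibitor of JAK kinases, was at 42.7, 39.1 and 40.9 TPM in the controls and at 20.9, 18.8 and 20.9 TPM after rutaecarpine. The groups were far apart. SOCS3 fell by 0.98 on the log2 scale (SE 0.10, limma adjusted p = 0.00201), from 40.9 ± 1.81 to 20.2 ± 1.22 TPM (SD, n = 3). LY6E, a lipid-anchored surface protein that affects virus entry, fell by 0.88 (adjusted p = 0.00801), from 120 ± 21.8 to 64.0 ± 1.70 TPM. LGALS3BP, a secreted glycoprotein that binds galectin, fell by 0.66 (adjusted p = 0.00532), from 498 ± 40.7 to 314 ± 18.1 TPM. PML, the organizer of PML nuclear bodies, fell by 0.71 (adjusted p = 0.0111), from 40.6 ± 0.455 to 24.5 ± 3.03 TPM. The call of PML was lost without control replicate 1 (adjusted p = 0.0513) and without rutaecarpine replicate 1 (0.0626), and it was made in 12 of 14 alternatives (the block not counted), with adjusted p from 0.000757 to 0.0626. The call of each of SOCS3, LY6E and LGALS3BP was made in 14 of 14.

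Receptors, kinases and STAT factors gave 0 calls among 10 tested genes (limma), against 4.6% of all tested genes called higher and 4.68% lower. Of the 10, 1 had an unadjusted p under 0.05, IFNGR1, against 13.4% of all tested genes higher and 11.0% lower. IFNAR1 was at 30, 28.6 and 15.4 TPM in the controls and at 31.8, 30.6 and 35.2 TPM after rutaecarpine, and IFNAR2 at 13.1 to 15.3 TPM and then 12.1 to 17.3 TPM. IFNGR1, a chain of the interferon gamma receptor, was at 15.9 to 21.3 TPM and then 22.3 to 27.2 TPM, a log2 fold change of 0.37 (95% interval 0.03 to 0.72) that did not pass (limma adjusted p = 0.179). IFNGR2 differed by -0.10 and IL10RB, a chain of the interferon lambda receptor, by 0.19. The lambda receptor's own chain, IFNLR1, was at most 0.7 TPM.

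Among the kinases, JAK1 differed by 0.21 and TYK2 by 0.14 on the log2 scale, and the factor STAT3 by -0.02. JAK2 was at 12.2, 12.1 and 5.12 TPM in the controls and at 5.16, 4.82 and 6.52 TPM after rutaecarpine, so that control replicate 3 lay among the rutaecarpine libraries. Its log2 fold change was -0.66 with all libraries (limma adjusted p = 0.263) and -1.03 without that control (adjusted p = 0.00437).

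The promoters of the members, from 250 bases before to 50 after the first start that RefSeq lists for each gene, were searched on both strands. The table held 37 of the 46 genes. An ISRE-like match (GAAANNGAAA) was in 25 of the 37 (67.6%), against 2.92% of 10353 tested genes and 3.65% of all 27305 genes in the table. A GAS-like match (TTCNNNGAA) was in 11 (29.7%, against 6.36% and 7.88%). The core of the dioxin response element, GCGTG, to which AhR and its partner ARNT bind, was in 6 (16.2%, against 51.01% and 36.3%). Of 9 members with several listed starts, PARP9 and RSAD2 held an ISRE-like match at a later start alone and are counted as without one. Overlapping matches of the same motif were counted separately within a promoter. A match describes these letters in this window and is no measure of binding.

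The printed stretch of IFITM3 holds both ISRE-like matches of its window, 52 and 35 bases before the start, and that of ISG15 holds a pair that overlap. Among tested members with a promoter in the table, the 23 with an ISRE-like match had a median log2 fold change of -0.04 (from -0.89 to 0.33, 2 called, IFITM3 and IFI6). The 9 without one had a median of 0.08 (from -0.80 to 0.52, 1 called, IRF9). The -0.80 was that of OAS1, selected through its controls, so this median and range carry that selection. Of all tested genes 4.68% were called lower and 4.6% higher, and calls in so few members are only a description. Members with ISRE-like matches therefore included both the lowest value and values near 0 such as that of ISG15.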

How the data were processed

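U87 cells were profiled in 3 control and 3 rutaecarpine libraries, grouped by the sample labels. Sequencing was on an Illumina NovaSeq, and the authors deposited RSEM estimates in TPM, 1 column per library. The build GRCh38.p13 is in the submitters' processing notes, and the aligner and annotation are not given in the sources used here. Of the table's columns, 0 were left unmatched, and 35671 of its 60671 genes carry no name.

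TPM keep no read numbers, so the test fits log2(TPM + 1) with limma 3.58.1 in R 4.3.3 (mean-variance trend, two-sided) on genes that reached 1 TPM in 3 or more libraries, with Benjamini-Hochberg adjustment over the 14377 genes. Genes with adjusted p of at most 0.05 were called, and DEGs also needed an absolute log2 fold change above 1, after the study's cutoffs. The added 1 shrinks fold changes of weakly expressed genes. No scaling was added. The test was tried on 5 simulated sets with 200 changed genes each. It recovered 85.4% of 4-fold changes and 51.6% of 2-fold changes. A gene that was not called may therefore still have changed. Lengths and positions came from GENCODE 29 (GRCh38) and promoters from RefSeq (GRCh38.p14). Python 3.11.15 was used for tables (pandas 2.3.3, numpy 2.4.6), intervals (scipy 1.17.1) and plots (matplotlib 3.10.9).

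The members and gene lists were chosen with earlier results of these data known. The text names each member, pathway genes that were called, interferon ligands, receptors, kinases and STATs, and the marker genes, with 1 pathway gene not reported here. Printing promoters of members that were DEGs had been planned, and there were 0, so the printed ones were chosen after seeing the values. Comparing IFITM proteins had been planned, and was not analysed here. The labels give no pairs, and replicate numbers were not taken as such. Deviations of same-numbered control and rutaecarpine libraries had r of 0.12, -0.27 and -0.22 across genes. Those of differently numbered libraries had r from -0.29 to 0.39, the latter between control replicate 3 and rutaecarpine replicate 2. With 3 libraries per group these values cannot show or exclude pairs. The alternatives were a pseudocount of 0.1, no filter, a TPM of at least 1 in each library, median centring, quantile normalisation, no trend, library weights, the replicate block and each library left out. The removal of a trend on length (natural spline, 5 degrees of freedom) and the IFITM sum were chosen after seeing the data.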

Additional observations from a re-analysis of the deposited data

How the results depend on the processing

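In each alternative, leaving out each library included, 0 members were DEGs in either direction, and the median log2 fold change of the members moved by less than 0.15 from -0.05 (-0.15 to 0.02 without 1 library). No called gene changed direction, and IFITM3 was called lower in each alternative. The numbers of calls did move, and the cause was not tested. The 1 member called higher became 0 with no filter, median centring, quantile normalisation or no trend, 3 with library weights (IRF1, IRF7 and IRF9), and 0 to 1 without 1 library, being 0 without any library other than control replicate 3. The 3 called lower became 6 with quantile normalisation and with no trend, 14 with library weights, 8 with the length trend removed, and 2 to 8 without 1 library. The 8 came without control replicate 3, and the 2 without control replicate 1, rutaecarpine replicate 1 or rutaecarpine replicate 3. Over the 14377 tested genes, calls lower went from 673 to 1056 with quantile normalisation, 618 with no trend and 2027 with library weights. Calls higher went from 662 to 755, 594 and 1935 in these fits and to 593 with median centring. With the length trend removed, 1303 of 14267 genes were lower and 1068 higher. Without control replicate 3, 1466 of 14188 genes were lower and 1186 higher. OAS1, selected through its controls, was among the 6, the 14 and the 8 of the length fit. The 0 pathway genes called higher became 2 with centring and with quantile normalisation (TRIM25 and TRIM5), 5 with weights, 4 with the length trend removed and 0 to 3 without 1 library. The 4 called lower became 9 with weights and 9 with the length trend removed, and 3 to 7 without 1 library. The 3 higher and the 7 lower came without control replicate 3.

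With the replicate block, 0 members were called higher and 1 lower, IFITM3, where IFITM2 had an adjusted p of 0.0626, IFI6 of 0.0867 and IRF9 of 0.17 (limma, Benjamini-Hochberg). Pathway genes called lower were 3, with PML at an adjusted p of 0.0744. Over all genes the block gave 428 calls in place of 1335, with 236 higher and 192 lower. Across all genes, weights gave 3962 calls, the removed length trend 2371, no filter 892, and leaving out 1 library between 500 and 2652, the latter without control replicate 3.

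In 16 members the sign changed under some alternative, and the values of changed sign did not pass (limma). They included SAMD9 and STAT2, at 0.32 and 0.25 with all libraries. On the log2 scale, centring gave -0.0031 for EIF2AK2, -0.078 for USP18, -0.016 for HERC6 and -0.089 for TRIM21, and quantile normalisation -0.012, -0.076, -0.019 and -0.082. Weights gave -0.021 for STAT2, -0.12 for EIF2AK2, -0.058 for IFIH1, -0.14 for HERC6 and -0.0020 for PARP14. Removing the length trend gave -0.088 for EIF2AK2, -0.0015 for IFIH1, -0.0071 for USP18, -0.025 for HERC6, -0.0086 for TRIM21 and -0.024 for PARP14. Without 1 library the ranges were -0.054 to 0.41 for STAT2, -0.082 to 0.40 for OAS2, -0.22 to 0.27 for EIF2AK2, -0.11 to 0.23 for IFIH1, -0.31 to 0.032 for MX2, -0.55 to 0.056 for GBP1, -0.15 to 0.016 for ISG15, -0.038 to 0.059 for USP18, -0.17 to 0.32 for HERC6, -0.44 to 0.11 for BST2, -0.41 to 0.39 for ISG20, -0.045 to 0.51 for SAMD9, -0.44 to 0.056 for SAMD9L, -0.052 to 0.096 for TRIM21, -0.30 to 0.13 for DTX3L and -0.12 to 0.35 for PARP14. Of these genes GBP1 was called lower, its direction with all libraries, without control replicate 3 (adjusted p = 0.0251) and with library weights (0.03). Since TPM hold no read numbers, what depth limits is unknown, and members near 1 TPM are measured least surely.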
